A study of Mus musculus with 4 samples.

Results

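Glutathione S-transferases were followed through 4 RNA sequencing libraries of MLg cells. A set of 10 genes was chosen by symbol with earlier measured values of the same libraries in view, so every level and fold change of these genes is given as a description and not as a test. The set comprised Gsta4 of the alpha class, Gstm1, Gstm2 and Gstm5 of the mu class, Gstp1 of the pi class, Gstt1 of the theta class, Gsto1 of the omega class, Gstk1 of the kappa class, and the membrane-bound enzymes Mgst1 and Mgst3. Of these 10 genes 9 were analysed and Gstk1 was not analysed here. They took up 16 of the 25388 RefSeq transcripts and 9 of the 12767 gene symbols of the expression table, with 7 transcripts for Mgst1, 2 for Gstt1 and 1 for each of the others. The transcript with the highest mean level over the 4 libraries stood for its gene.

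MLg is an established fibroblast line from mouse lung, and all 4 libraries came from these wild-type cells. The groups were TGFB1+miR-9-LOF (antagomiR against miR-9-5p and transforming growth factor beta 1), TGFB1 (control antagomiR and TGFB1), miR-9-LOF (antagomiR against miR-9-5p alone) and Ctrl (control antagomiR alone), with 1 library each. An antagomiR is a modified antisense oligonucleotide that blocks a mature miRNA, here giving a loss-of-function (LOF), and every group had been transfected with one by lipofection. The treatment protocol gave 60 nM antagomiR and harvest after 24 h, with human recombinant TGFB1 at 5 ng/ml added at 20 h and left for 4 h. The design text of the series instead gave 10 nM and 48 h. Which of these applied to the libraries was not settled here. No label said that the libraries came from separate cultures, and with 1 library per group no difference had a replicate check.

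Glutathione S-transferases join the tripeptide glutathione to electrophilic compounds, among them drugs, environmental chemicals and the aldehydes that form when lipids are oxidised, and the conjugates are then pumped out of the cell. Most are soluble dimers sorted into classes by sequence, whereas the microsomal enzymes sit in membranes and are not related to the soluble ones. Many of their genes are induced through the transcription factor NRF2, which the adaptor KEAP1 holds at a low level until electrophiles or oxidants release it.

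The miRNA that the antagomiR blocks is shown first, because it fixes the letters of a seed match in a 3′ UTR, the only kind of site searched here. The capitals mark the seed, bases 2 to 8, and the sequence is from RefSeq (GRCm38.p6), where Mir9-1 on chromosome 3 (88215613 to 88215635), Mir9-2 on chromosome 13 (83738821 to 83738843) and Mir9-3 on chromosome 7 (79505279 to 79505301) all give it.
miR-9-5p: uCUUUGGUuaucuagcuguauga
The letters that pair with this seed, ACCAAAG, were searched in the 3′ UTRs of the GENCODE transcripts of the 9 genes. None of the 9 held them, and none held the match to bases 2 to 7 followed by A. Their 3′ UTRs were short, between 66 nt in Gstp1 and 537 nt in Mgst3, with 170 nt in Gsta4. Among 21193 mouse genes with a 3′ UTR, whose median length was 1083 nt, 13.4% held ACCAAAG. A missing match says only that these letters were not in these UTRs.

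Levels are given as RPKM, the reads of a transcript scaled to its length in kilobases and to the depth of the library, each with its exact 95% Poisson interval. Fold changes are given as log2 ratios of RPKM + 1, which understate the change of low genes, and as ratios of RPKM with the exact 95% binomial interval of the reads. These intervals cover counting error only, and say nothing of how cultures vary. "Rose" and "fell" are used for a log2 change of 0.58 or more, a ratio of 1.49 at high levels, in genes with a mean of 1 RPKM or more over both libraries. The library totals behind the RPKM values were 19019174 reads for TGFB1+miR-9-LOF, 21807187 for TGFB1, 14719887 for miR-9-LOF and 27416665 for Ctrl. Rn45s, Mir6236 and Lars2 together took 28.9% of the counts in TGFB1+miR-9-LOF, 16.4% in TGFB1, 34.1% in miR-9-LOF and 19.2% in Ctrl, and these counts are part of the totals by which RPKM divides. The median log2 change of all genes was -0.17 for miR-9-LOF over Ctrl. Other scalings (totals without these 3 transcripts, centring on the median of all genes, TMM factors and DESeq2 size factors) shifted that comparison by 0.17 to 0.29 on the log2 scale and TGFB1+miR-9-LOF over TGFB1 by 0.08 to 0.23. Of 9 fibroblast markers 8 were in the table, each at 1 RPKM or more in every library, with sums of 1593 RPKM in TGFB1+miR-9-LOF, 2082 in TGFB1, 1253 in miR-9-LOF and 1623 in Ctrl. Epithelial markers (2 of 8 in the table) summed to 3.24, 6.42, 3.75 and 6.67 RPKM in TGFB1+miR-9-LOF, TGFB1, miR-9-LOF and Ctrl. Leukocyte markers (2 of 5) summed to 4.62, 4.87, 6.98 and 6.07 in the same libraries. Endothelial markers (1 of 5) summed to at most 0.115, and these sums cover only the listed markers that were in the table. The part of any of these in the results below was not tested, other than by the scalings.

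With the miR-9 antagomiR 3 members were past the limit and 6 inside it, and Gsta4 was far ahead of the rest. In miR-9-LOF over Ctrl, Gsta4, Gstm1 and Gstp1 rose and none of the 9 genes fell, where 2.03% of 9291 genes tested rose and 6.72% fell (3.90% to 5.96% and 1.46% to 2.02% under the 4 other scalings). In TGFB1+miR-9-LOF over TGFB1 the same 3 genes rose and none fell, where 2.06% of 9535 genes tested rose and 1.48% fell (2.36% to 3.77% and 0.465% to 0.885%). The median log2 change of the 9 genes was 0.29 and 0.22 in these comparisons, beside -0.17 and -0.08 over all genes tested. Since the genes were chosen with these changes known, their share was not read against that of all genes. Ratios exceeded 1 for 7 of the 9 genes without TGFB1 and 8 of 9 with it, and for all 9 in both comparisons under each of the 4 other scalings tried. In bulk RNA, fewer cells that express a gene and less RNA per cell cannot be told apart.

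With TGFB1 most members were lower. In TGFB1 over Ctrl, 8 of the 9 ratios were below 1 and only Gsto1 was above it, also under each of the 4 other scalings. The intervals of 6 genes lay wholly below 1, yet only Gstm1 passed the limit and fell, and none rose, where 2.68% of 9527 genes tested rose and 2.92% fell. The median log2 change of the 9 genes was -0.45, beside -0.01 over all genes tested. In TGFB1+miR-9-LOF over miR-9-LOF, Gsta4 and Gstm1 fell and none rose, where 7.13% of 9345 genes tested rose and 2.48% fell (4.04% to 5.83% and 3.19% to 4.73% under the other scalings). That count grew to 4 with TMM factors, DESeq2 size factors, totals without the 3 abundant transcripts or a pseudocount of 0.1. In TGFB1+miR-9-LOF over Ctrl, Gsta4 rose and none fell, where 2.76% of 9541 genes tested rose and 4.65% fell (3.25% to 4.96% and 2.48% to 3.36%). The comparisons share libraries and are therefore not independent of each other.

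**Figure D1:**
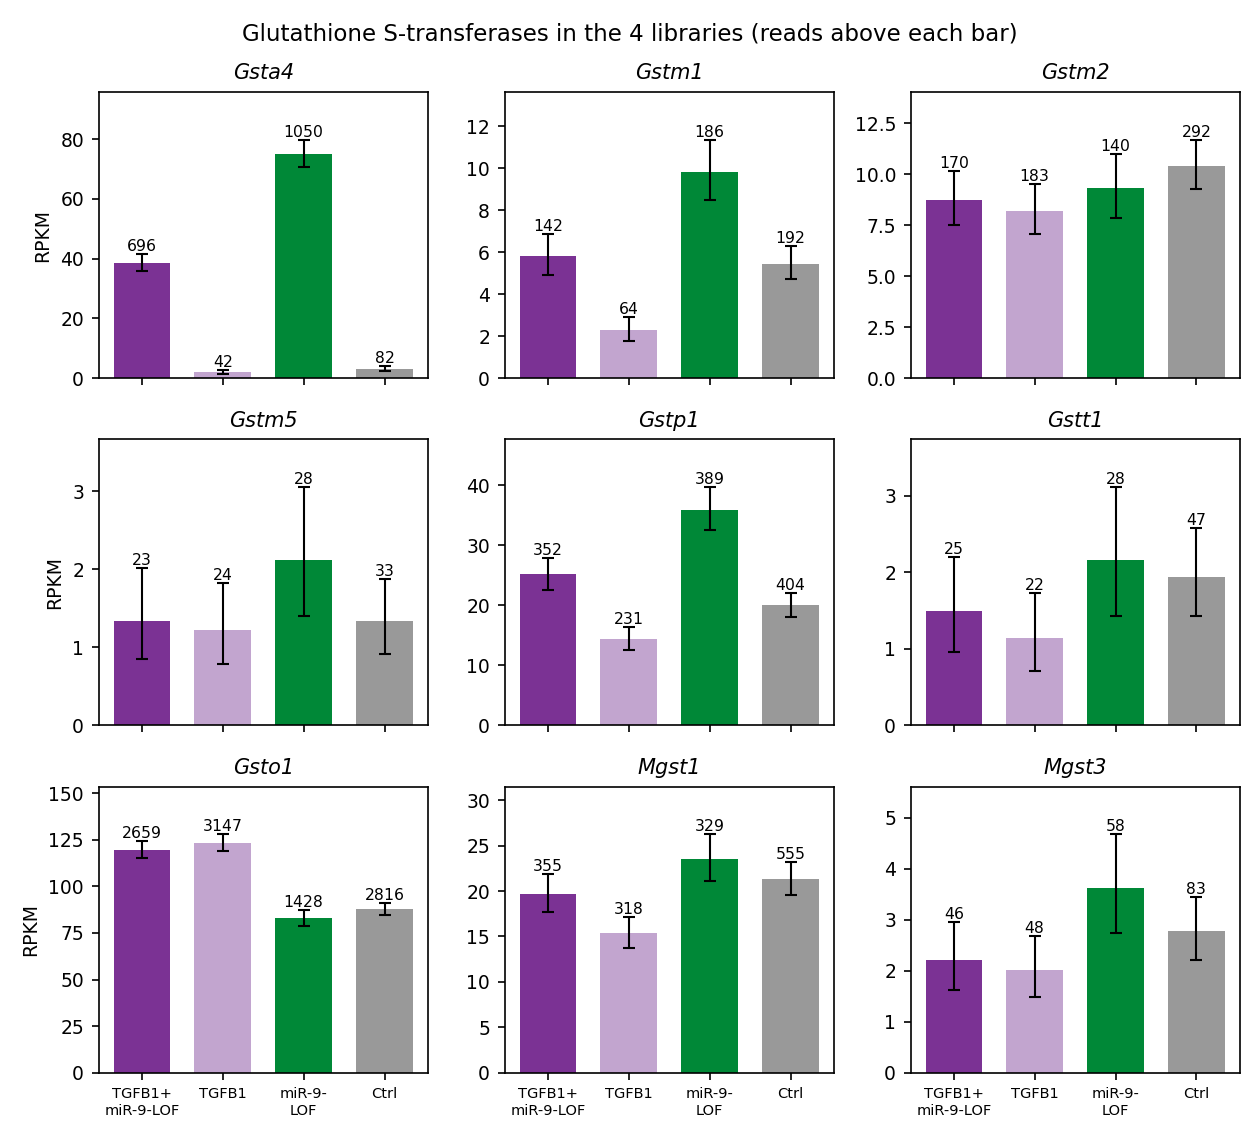
RPKM of the 9 glutathione S-transferases (y axis, a separate linear scale from 0 for each gene) in the TGFB1+miR-9-LOF, TGFB1, miR-9-LOF and Ctrl libraries (x axis, 1 library each), with exact 95% Poisson intervals as error bars and the number of reads above each bar. Gsta4 stands at 38.6 and 75.2 RPKM in both miR-9-LOF libraries and at 2.03 and 3.15 RPKM in the others, whereas Gsto1 is highest in both TGFB1 libraries.

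Gsta4, an alpha-class enzyme that detoxifies the lipid aldehyde hydroxynonenal, changed most. Its transcript NM_010357 gave 696 reads in TGFB1+miR-9-LOF, 42 in TGFB1, 1050 in miR-9-LOF and 82 in Ctrl, although the miR-9-LOF library was the shallowest. These were 38.6 (35.7 to 41.5), 2.03 (1.46 to 2.74), 75.2 (70.7 to 79.9) and 3.15 (2.51 to 3.91) RPKM. Both libraries with the miR-9 antagomiR were thus high, and both with the control antagomiR were low. The ratio was 23.8 (19.0 to 30.2) for miR-9-LOF over Ctrl and 19.0 (13.9 to 26.6) for TGFB1+miR-9-LOF over TGFB1, or 4.20 and 3.71 on the log2 scale. These were the highest of 9291 and the second highest of 9535 log2 changes of RPKM + 1 among all genes tested. The ranks depend on the 1 added to RPKM and were not recomputed with other pseudocounts or scalings. By the ratio of RPKM, Ccl5 changed more, at 19.6 RPKM in miR-9-LOF against 0.208 in Ctrl, where it had 3 reads. Over 8 other ways of processing, the log2 changes of Gsta4 stayed between 3.30 and 4.55 without TGFB1 and between 2.63 and 4.18 with it. Leaving out the filter and taking the longest transcript are among the 8 and could not change these values. The level was lower with TGFB1 under either antagomiR. With the miR-9 antagomiR the ratio was 0.513 (0.465 to 0.565) and Gsta4 fell by 0.95 on the log2 scale, whereas with the control antagomiR it was 0.644 (0.433 to 0.945), a log2 change of -0.45. Gsta4 lies on chromosome 9 from 78191966 to 78209349 (RefSeq, GRCm38.p6), and none of the 933 windows of 45 bases in its transcripts occurred in transcripts of another gene, so its reads were not shared with the other alpha-class genes over that length.

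The mu-class genes lie close together on chromosome 3 and behaved differently from each other. Gstm1, whose product conjugates a broad range of electrophiles, had 142, 64, 186 and 192 reads in TGFB1+miR-9-LOF, TGFB1, miR-9-LOF and Ctrl, or 5.81, 2.29, 9.84 and 5.45 RPKM. It was lowest in the TGFB1 library and highest in the miR-9-LOF library, and the levels of TGFB1+miR-9-LOF and Ctrl could not be told apart by their counts (ratio 1.07, 0.852 to 1.33). It rose in miR-9-LOF over Ctrl (ratio 1.80, 1.47 to 2.22) and in TGFB1+miR-9-LOF over TGFB1 (ratio 2.54, 1.88 to 3.47). It fell in TGFB1 over Ctrl (ratio 0.419, 0.311 to 0.559) and in TGFB1+miR-9-LOF over miR-9-LOF (ratio 0.591, 0.472 to 0.739). With a pseudocount of 5 all 4 changes lay inside the limit. Gstm1 had the lowest ratio of the 9 members in TGFB1 over Ctrl, and it lies on chromosome 3 from 108012250 to 108017973.

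Gstm2, a mu-class neighbour on the same chromosome, gave 170, 183, 140 and 292 reads in TGFB1+miR-9-LOF, TGFB1, miR-9-LOF and Ctrl, or 8.75, 8.22, 9.32 and 10.4 RPKM. All 4 libraries lay within a narrow band, with a ratio of 0.893 (0.725 to 1.10) for miR-9-LOF over Ctrl and 1.07 (0.859 to 1.32) for TGFB1+miR-9-LOF over TGFB1. Its interval excluded 1 only in TGFB1 over Ctrl (0.788, 0.651 to 0.951). Gstm5 was close to the floor of the comparison, with 23, 24, 28 and 33 reads or 1.34, 1.22, 2.11 and 1.34 RPKM in the same libraries, and the intervals of its ratios included 1 in each of the 5 comparisons. Mu-class reads are uncertain in part. Of the windows of 45 bases, 25.5% in Gstm1 and 11.1% in Gstm2 also occurred in transcripts of other genes, mostly of the mu class and its pseudogenes. In Gstm5 14.9% did, all in 4933431E20Rik, a gene on the opposite strand whose exons overlap those of Gstm5 by 178 nt. Reads were counted on both strands, so reads of this pair within the overlap cannot be told apart. Summed, Gstm1 and Gstm2 gave 326 reads in miR-9-LOF against 484 in Ctrl, a ratio of 1.25 (1.09 to 1.45). In TGFB1+miR-9-LOF they gave 312 reads against 247 in TGFB1, a ratio of 1.45 (1.22 to 1.72). Both ratios lay below 1.49, and below the 1.80 and 2.54 of Gstm1 alone. The sum leaves out the pseudogene Gstm2-ps1, in which 19.4% of the windows of Gstm1 occurred. It therefore cannot settle how shared reads were split.

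Gstp1, the pi-class enzyme that is abundant in many cell types, followed the direction of Gsta4 at a smaller size. It gave 352, 231, 389 and 404 reads in TGFB1+miR-9-LOF, TGFB1, miR-9-LOF and Ctrl, or 25.2, 14.4, 36.0 and 20.0 RPKM. The intervals of the 4 levels, 22.6 to 28.0, 12.6 to 16.4, 32.5 to 39.7 and 18.1 to 22.1 RPKM, did not overlap, with miR-9-LOF highest and TGFB1 lowest. Gstp1 rose in miR-9-LOF over Ctrl (ratio 1.79, 1.56 to 2.07) and in TGFB1+miR-9-LOF over TGFB1 (ratio 1.75, 1.48 to 2.07), and did so under all 8 other ways of processing. Among the 8, leaving out the filter and taking the longest transcript could not change the values of Gstp1. After TGFB1 the ratios were 0.719 (0.609 to 0.847) over Ctrl and 0.700 (0.605 to 0.811) over miR-9-LOF, both inside the limit, which Gstp1 passed in the second of these under 3 of the 8 other ways of processing (down to -0.63). Gstp1 lies on chromosome 19 from 4035411 to 4037912. Gstp2, its neighbour from 4040288 to 4042221, shares 63.3% of the windows of 45 bases of Gstp1, so the split of reads between them is uncertain. Summed, both genes gave 646 reads in miR-9-LOF against 642 in Ctrl, a ratio of 1.87 (1.68 to 2.09), and 555 in TGFB1+miR-9-LOF against 372 in TGFB1, a ratio of 1.71 (1.50 to 1.96).

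Gsto1, an omega-class enzyme with thioltransferase and dehydroascorbate reductase activity, was the highest member in every library. It gave 2659, 3147, 1428 and 2816 reads in TGFB1+miR-9-LOF, TGFB1, miR-9-LOF and Ctrl, or 119.6, 123.4, 83.0 and 87.9 RPKM. The libraries split by TGFB1 and not by antagomiR. The ratio was 1.41 (1.33 to 1.48) for TGFB1 over Ctrl and 1.44 (1.35 to 1.54) for TGFB1+miR-9-LOF over miR-9-LOF, log2 changes of 0.49 and 0.52 that lay inside the limit. For the miR-9 antagomiR the ratio was 0.945 (0.886 to 1.01) over Ctrl and 0.969 (0.920 to 1.02) over TGFB1, with both intervals including 1 and both log2 changes positive, up to 0.21 and 0.19, under each of the 4 other scalings. Gsto1 lies on chromosome 19 from 47854973 to 47864790.

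The membrane-bound enzymes and Gstt1 stayed inside the limit in all 5 comparisons, although Mgst3 passed it in TGFB1+miR-9-LOF over miR-9-LOF under 4 of the 8 other ways of processing (down to -0.68) and Gstt1 in TGFB1 over Ctrl under 1 (-0.72). Mgst1, which has both transferase and peroxidase activity and sits in the endoplasmic reticulum and the outer mitochondrial membrane, gave 355, 318, 329 and 555 reads in TGFB1+miR-9-LOF, TGFB1, miR-9-LOF and Ctrl, or 19.7, 15.4, 23.6 and 21.3 RPKM. It was lowest in the TGFB1 library, with a ratio of 0.720 (0.626 to 0.828) over Ctrl, and the ratio of TGFB1+miR-9-LOF over TGFB1 was 1.28 (1.10 to 1.49). Its 7 transcripts share most of their reads and gave log2 changes between 0.12 and 0.25 for miR-9-LOF over Ctrl and between -0.45 and -0.39 for TGFB1 over Ctrl. Mgst3, a relative in the same membrane protein family, had 46, 48, 58 and 83 reads or 2.22, 2.02, 3.62 and 2.78 RPKM in the same libraries. Its interval excluded 1 only for TGFB1+miR-9-LOF over miR-9-LOF (0.614, 0.408 to 0.920). Gstt1, the theta-class enzyme known for acting on small halogenated compounds, had 25, 22, 28 and 47 reads or 1.49, 1.14, 2.16 and 1.94 RPKM, with a ratio of 0.588 (0.338 to 0.996) for TGFB1 over Ctrl. For miR-9-LOF over Ctrl the interval ran from 0.914 to 1.84 in Mgst3, from 0.669 to 1.81 in Gstt1 and from 0.920 to 2.70 in Gstm5, so a change of the size of the limit was not excluded in these genes.

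**Figure D2:**
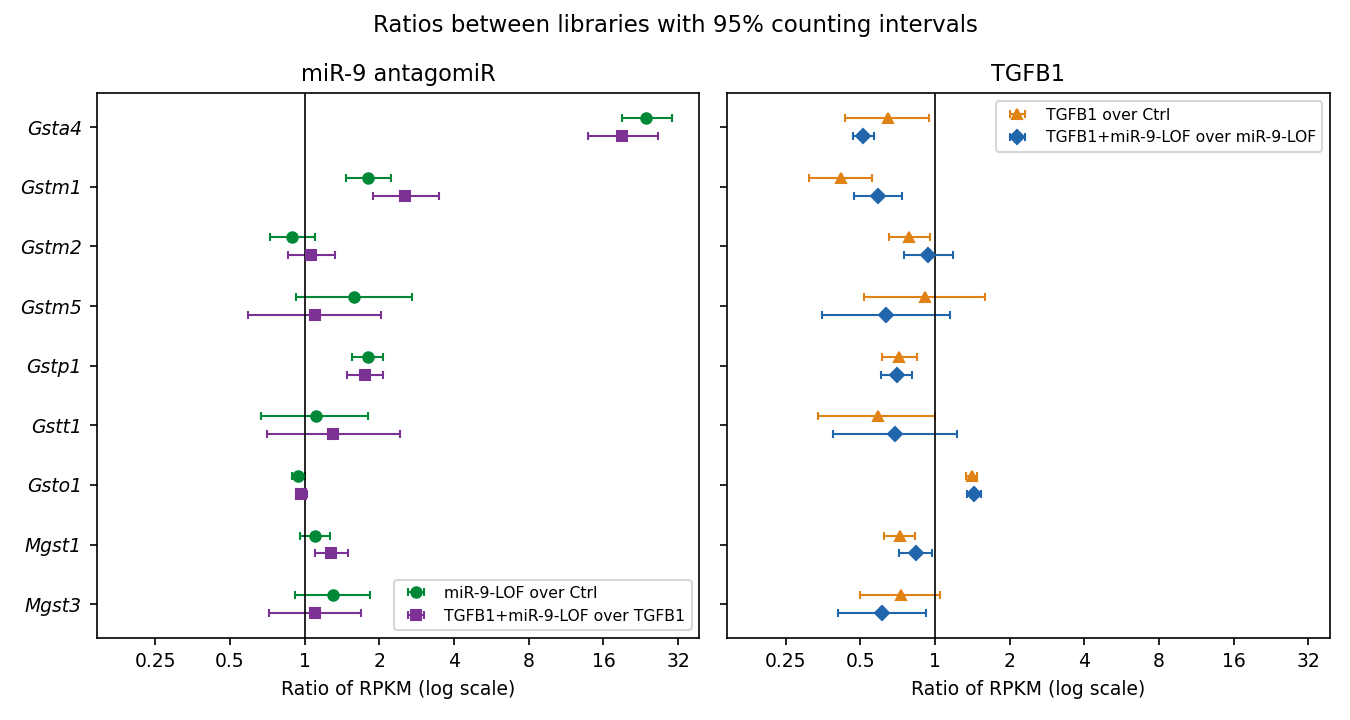
Ratios of RPKM (x axis, log scale) of the 9 genes (y axis) for the miR-9 antagomiR (left, without and with TGFB1) and for TGFB1 (right, with the control and with the miR-9 antagomiR), with exact 95% binomial intervals from the reads as bars and a line at 1. Gsta4, Gstm1 and Gstp1 lie right of 1 on the left side, and on the right side Gsto1 alone lies above 1, at 1.41 and 1.44.

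Whether TGFB1 altered the response to the antagomiR was asked with the ratio of the antagomiR ratios, with TGFB1 over without. It was 0.797 (0.535 to 1.20) for Gsta4, 1.41 (0.972 to 2.05) for Gstm1 and 0.974 (0.780 to 1.22) for Gstp1. For Gsto1, the gene with most reads, it was 1.03 (0.944 to 1.11). The exact conditional 95% interval included 1 for all 9 genes, also under the 3 other library scalings. The widest interval was that of Gstt1, 0.525 to 2.63, which leaves room for sizeable differences in the low genes. The log2 change of Gsta4 was smaller with TGFB1, by a margin within the counting error of its 42 reads in the TGFB1 library.

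The make-up of the family by level differed between the libraries. The 9 genes summed to 222.6 RPKM in TGFB1+miR-9-LOF, 170.1 in TGFB1, 244.7 in miR-9-LOF and 154.3 in Ctrl. Gsta4 made up 17.3%, 1.19%, 30.7% and 2.04% of these sums, and moved up to second place in both miR-9-LOF libraries, against sixth place in TGFB1 and Ctrl. Gsto1 made up 53.7%, 72.6%, 33.9% and 56.9%. Without Gsta4 the sums were 184.1, 168.1, 169.5 and 151.2 RPKM. The ratio of the sums was thus 1.59 for miR-9-LOF over Ctrl and 1.31 for TGFB1+miR-9-LOF over TGFB1, and 1.12 and 1.09 without Gsta4, all as scaled by the totals behind the RPKM values. In Ctrl the order was Gsto1, Mgst1, Gstp1, Gstm2, Gstm1, Gsta4, Mgst3, Gstt1 and Gstm5, and the intervals of Mgst1 and Gstp1 overlapped, as did those of each neighbouring pair from Gsta4 down to Gstm5. In miR-9-LOF the intervals of Gsto1 (78.7 to 87.4 RPKM) and Gsta4 (70.7 to 79.9 RPKM) overlapped.

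**Figure D3:**
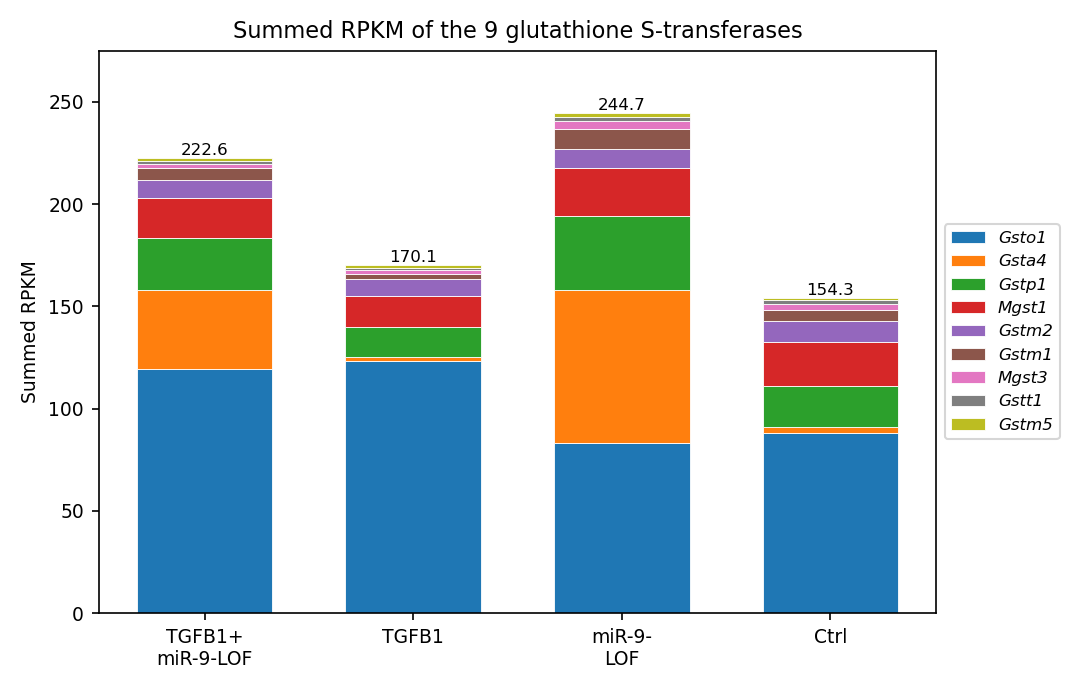
Summed RPKM of the 9 glutathione S-transferases (y axis, linear from 0) in the 4 libraries (x axis), stacked by gene, with the sum above each bar. The Gsta4 section makes up 17.3% and 30.7% of the bars of TGFB1+miR-9-LOF and miR-9-LOF, and 1.19% and 2.04% of those of TGFB1 and Ctrl.

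The genes whose pattern was most like that of Gsta4 were sought among 4663 genes with a mean of 5 RPKM or more, by the Euclidean distance of the 3 log2 ratios to the Ctrl library. The nearest was Ccl5, a chemokine gene, at a distance of 0.86, with 191, 1, 152 and 3 reads in TGFB1+miR-9-LOF, TGFB1, miR-9-LOF and Ctrl. At 0.0872 and 0.208 RPKM in TGFB1 and Ctrl, Ccl5 reached the mean only through the miR-9-LOF libraries. Its log2 ratios therefore depend on the 1 added to RPKM. In TGFB1+miR-9-LOF and miR-9-LOF Ccl5 stood at 19.1 and 19.6 RPKM, where Gsta4 stood at 38.6 and 75.2. Prl2c3, Prl2c4 and Prl2c2, genes of the proliferin group of prolactin relatives, followed at 1.39, 1.39 and 1.41, with 481, 43, 642 and 113 reads for Prl2c3. These paralogs are near-identical and may have split the same reads. Prl2c3 too was below 5 RPKM in TGFB1 and Ctrl, at 2.33 and 4.88 RPKM. Mir6236, one of the 3 abundant transcripts named above, came next at 1.51. A distance over 4 libraries describes likeness of levels and nothing else.

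The promoters of 8 of the 9 genes (10 promoters, 250 bases before to 50 after the RefSeq start, GRCm38.p6) were searched on both strands for 4 motifs linked to these genes in general. The antioxidant response element core, which NRF2 binds with a small MAF partner, was searched only in the form TGACNNNGC. This form was in the promoters of Gstm5 and Mgst1 and in 12.4% of 32851 mouse promoters. Neither gene passed the limit in any of the 5 comparisons. Under other ways of processing Gstm5 did, in miR-9-LOF over Ctrl under 3 of the 8 and in TGFB1+miR-9-LOF over miR-9-LOF under 1 (-0.62). Gstm1 and Gstp1, which rose, had no match to TGACNNNGC in this window, and the promoter of Gsta4 was not analysed here. The matches are shown in capitals with their flanks, on chromosome 3 from 107895802 to 107895831 and on chromosome 6 from 138140461 to 138140490, both in the direction of the gene.
Gstm5: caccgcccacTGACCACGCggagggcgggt
Mgst1: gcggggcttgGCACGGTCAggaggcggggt
The Mgst1 match reads on the reverse strand. The AP-1 site TGANTCA, held by 7.81% of promoters, was in those of Gstp1 and Gstm5, and in that of Gstp2. In Gstp1 and Gstp2 this site and the gc after it differ from TGACNNNGC only by G in place of C. That form was not searched here. The Gstp1 and Gstp2 matches are shown because their flanks were identical over 30 bases. They lie on chromosome 19 from 4037968 to 4037997 and from 4042292 to 4042321, minus strand, with the site in capitals. Both genes rose, but 63.3% of the windows of 45 bases of Gstp1 occur in Gstp2. Their rises are therefore not 2 separate observations.
Gstp1: ctccaacgtgtTGAGTCAgcatccggggcg
Gstp2: ctccaacgtgtTGAGTCAgcatccggggcg
The xenobiotic response element core GCGTG, held by 32.4% of promoters, was in those of Gstm1, Gstm5, Gstp1 and Mgst3. A G-quadruplex pattern, 4 runs of 3 or more G, was in that of Mgst3 and in 18.6% of promoters. These are matches of letters, and binding was not measured in these libraries.

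Other glutathione S-transferase genes were taken from a list of 20 symbols, 11 of which were in the table. No count of those that rose is given, because Gsta1 and Gsta2 reached the minimum level only through the miR-9-LOF libraries. The alpha-class genes Gsta1 and Gsta2, near Gsta4 on chromosome 9, and Gsta5 had at most 1 read each in TGFB1 and in Ctrl. Gsta1 gave 25, 0, 48 and 1 reads in TGFB1+miR-9-LOF, TGFB1, miR-9-LOF and Ctrl, Gsta2 gave 34, 0, 50 and 1, and Gsta5 gave 8, 1, 16 and 0. Between 68.2% and 100% of their windows of 45 bases occurred in transcripts of other genes, so they are best read as 1 group. Together they gave 114 reads in miR-9-LOF against 2 in Ctrl, and 67 reads in TGFB1+miR-9-LOF against 1 in TGFB1, at levels of up to 4.02 RPKM. These genes were named after their values were seen. Their reads are therefore a description and no support for the change of Gsta4. Gstp2 shares 65.3% of its windows of 45 bases with Gstp1, so its values are not separate from those of Gstp1. It rose in both comparisons, at 14.4 RPKM in TGFB1+miR-9-LOF against 8.70 in TGFB1 and 23.5 RPKM in miR-9-LOF against 11.7 in Ctrl. The theta, omega and zeta genes Gstt3, Gsto2 and Gstz1 stayed inside the limit in both.

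Some genes that supply and regenerate glutathione also rose. The lists of related genes here and below were, like the members, chosen with earlier results of these data known. Their counts are thus a description and were not read against the shares of all genes given beside them. Of 20 genes for glutathione synthesis, uptake and turnover, 12 were tested in miR-9-LOF over Ctrl and 3 rose. In TGFB1+miR-9-LOF over TGFB1 13 were tested and 4 rose, with none falling in either. Of all genes tested 2.03% and 2.06% rose, and 6.72% and 1.48% fell. Of the 4 listed genes that rose with TGFB1, Ggt1 reached the minimum level only through the TGFB1+miR-9-LOF library, at 1.47 RPKM against 0.587 in TGFB1. Gclm, the modifier subunit of the enzyme that catalyses the first step of glutathione synthesis, had 13.9 RPKM in miR-9-LOF against 6.91 in Ctrl (ratio 2.01, 1.75 to 2.31) and 10.5 in TGFB1+miR-9-LOF against 6.13 in TGFB1 (ratio 1.72, 1.47 to 2.01). Gclc, its catalytic subunit, rose only just without TGFB1 (0.59 on the log2 scale) and lay just inside the limit with it (0.54). Esd, an esterase that acts on a glutathione compound formed during formaldehyde breakdown, rose by 0.78 and 0.92. Chac1, which breaks glutathione down, rose with TGFB1 (0.64) and had a log2 change of 0.39 without it. The median log2 change of the list was 0.22 in both comparisons, beside -0.17 and -0.08 over all genes.

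Of 23 glutathione and thioredoxin peroxidases and reductases, likewise listed with earlier results known, 19 were tested in each comparison. In miR-9-LOF over Ctrl 3 rose and in TGFB1+miR-9-LOF over TGFB1 2 rose, with none falling. Of all genes the same 2.03% and 2.06% rose, and 6.72% and 1.48% fell. Srxn1, which repairs oxidised peroxiredoxins, rose by 1.18 and 0.67, and the thioredoxin reductase Txnrd1 by 0.64 and 0.69. Gsr, the reductase that regenerates glutathione, rose without TGFB1 (0.79) and had a log2 change of 0.24 with it. The other 16 and 17 genes stayed inside the limit, and the median of the list was 0.08 in both.

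Other detoxification enzymes linked to NRF2, in a list also chosen with earlier results known, rose in part as well. Of 33 such genes, 29 were tested in miR-9-LOF over Ctrl, and 7 rose and 2 fell, beside 2.03% and 6.72% of all genes. In TGFB1+miR-9-LOF over TGFB1 27 were tested, and 7 rose and none fell, beside 2.06% and 1.48%. Aldh3a1, an aldehyde dehydrogenase and 1 of the 7 without TGFB1, reached the minimum level only through the miR-9-LOF library, at 2.36 RPKM against 0.0922 in Ctrl. Nqo1, a quinone reductase, had 10.1 RPKM in miR-9-LOF against 2.06 in Ctrl (ratio 4.90, 3.81 to 6.35) and 7.22 in TGFB1+miR-9-LOF against 1.72 in TGFB1 (ratio 4.19, 3.12 to 5.70). Hmox1, the haem oxygenase, had 125.7 RPKM in miR-9-LOF against 36.7 in Ctrl (ratio 3.43, 3.22 to 3.65) and 97.5 in TGFB1+miR-9-LOF against 40.1 in TGFB1 (ratio 2.43, 2.28 to 2.59). Blvrb, a biliverdin reductase, rose by 1.42 and 1.24 on the log2 scale. The log2 changes of these 3 genes lay between those of Gstp1 and Gsta4 in both comparisons, and the median of the list was 0.26 and 0.10. Across the 4 other scalings between 10 and 13 of the list rose without TGFB1 and between 8 and 10 with it, beside 3.90% to 5.96% and 2.36% to 3.77% of all genes.

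The regulators did not share 1 direction. Nfe2l2, the gene of NRF2, had a log2 change of -0.19 in miR-9-LOF over Ctrl and 0.17 in TGFB1+miR-9-LOF over TGFB1, and Keap1 had 0.23 and 0.09. Of 10 genes in this list, Sqstm1, which binds KEAP1 and is itself an NRF2 target, was the 1 that rose, by 1.01 and 0.73. Of all genes tested 2.03% and 2.06% rose in these comparisons, and 6.72% and 1.48% fell. Cul3 and Rbx1, parts of the ubiquitin ligase that KEAP1 recruits, fell in miR-9-LOF over Ctrl, where Cul3 had 2.92 RPKM against 5.65 RPKM in Ctrl. Neither call held throughout: Rbx1 passed the limit with none of the 4 other scalings, and Cul3 did not pass it with totals without the 3 abundant transcripts or with DESeq2 size factors. The median of the 10 genes was -0.28 without TGFB1 and -0.07 with it. Among the 5 genes tested for export of glutathione conjugates 0 rose in either comparison, beside the same 2.03% and 2.06% of all genes. Under each of the 4 other scalings Abcc1, Abcc4 and Abcb6 rose in miR-9-LOF over Ctrl, beside 3.90% to 5.96% of all genes. In TGFB1 over Ctrl, the NRF2-linked enzymes were the only one of these lists with genes past the limit, and 4 of 28 tested fell and 0 rose, beside 2.92% and 2.68% of all genes. Protein levels, enzyme activity and glutathione itself were not measured in these libraries.

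**Figure D4:**
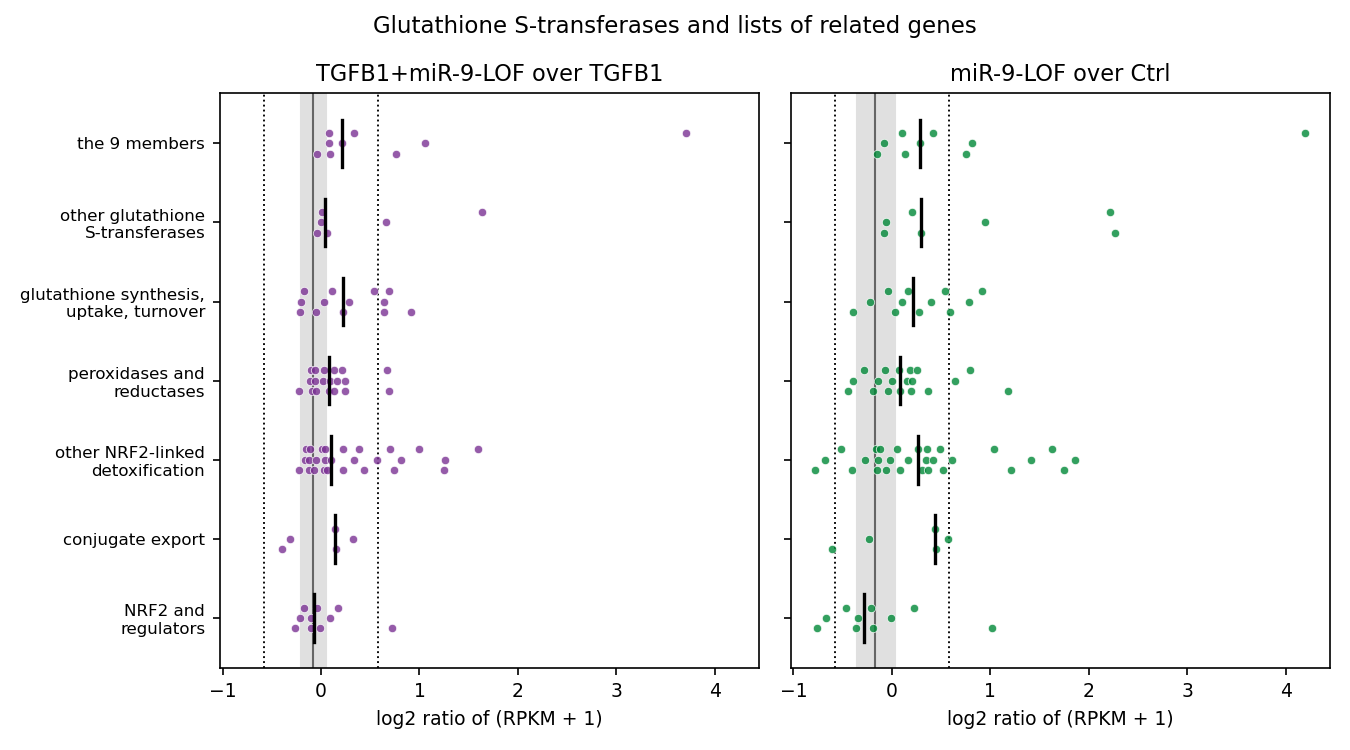
Log2 ratios of RPKM + 1 (x axis) of the tested genes in each list (y axis) for TGFB1+miR-9-LOF over TGFB1 (left) and miR-9-LOF over Ctrl (right), 1 point per gene, spread vertically for legibility, with a black bar at the list's median. Grey marks the quartiles and the median of all genes tested and dotted lines the limits of 0.58 in either direction, and Gsta4 is the point farthest to the right, at 3.71 and 4.20.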

How the data were processed

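The authors sequenced single-end reads of ribosomal RNA-depleted total RNA, trimmed them with Trimmomatic (0.36 in the submitters' notes), aligned them to mm10 with Bowtie2 and used HOMER, without regard to strand, to make the deposited whole-number counts per RefSeq transcript. From these the authors derived RPKM in edgeR and added 1 to each value, which was subtracted here. The deposited log2 ratios to Ctrl (3 columns) were not used. Isoforms of a gene share reads.

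The members and lists were chosen with earlier results of these data known. Ratios and exact intervals were computed with Python 3.11.15 and scipy 1.17.1 and tested on simulated data. The limit of 0.58 on the log2 scale is that of the study. Alternatives were 4 other scalings (edgeR 4.0.16 for TMM, DESeq2 1.42.0 for size factors, totals without 3 abundant transcripts, centring), pseudocounts of 0.1 and 5, no filter, a limit of 1 and the longest transcript. The ratio of antagomiR ratios, the counts of ratios above 1 and the list counts were recomputed under other scalings as a choice made after seeing the data.

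Named genes were all members, the 3 genes per list with the largest change past the limit after the miR-9 antagomiR at a mean of 5 RPKM or more, Nfe2l2, Keap1, Gclm, Gclc and Gsr, and the 5 genes nearest to Gsta4. A result that this rule would name is not reported here. Gsta1, Gsta2, Gsta5, Gstt3, Gsto2, Gstz1, Ggt1, Aldh3a1, Rbx1, Abcc1, Abcc4 and Abcb6 were named after their values were seen. Promoters and the miRNA are from RefSeq, and transcripts and 3′ UTRs from GENCODE (GRCm38). A window of 45 bases counted as shared when it occurred on either strand in a transcript of another gene. Counts in the miR-9-LOF library, the shallowest, limit the precision of its ratios.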

Additional observations from a re-analysis of the deposited data

Results flagged for a closer look

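Gstm2 was picked out because its antagomiR ratio lay on opposite sides of 1 with and without TGFB1, at 1.07 with TGFB1 and 0.893 without it, a ratio of the ratios of 1.19 (0.883 to 1.61, exact conditional 95% interval from the counts). With 1 library per condition the difference between conditions was not tested, and both single intervals and that of their ratio included 1. Under each of the 4 other scalings both ratios lay above 1.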

How the results depend on the processing

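No paired analysis was possible because each condition had 1 library. The count of members past the limit kept within 1.5 times of its value for miR-9-LOF over Ctrl and TGFB1+miR-9-LOF over TGFB1 in every alternative except the limit of 1, which left 1 member, Gsta4, for miR-9-LOF over Ctrl. For TGFB1 over Ctrl the count of 1 became 3 with a pseudocount of 0.1 (Gsta4, Gstm1 and Gstt1), 0 with a pseudocount of 5 and 0 at a limit of 1. For TGFB1+miR-9-LOF over miR-9-LOF the count of 2 became 4 with totals without the 3 abundant transcripts, TMM factors, DESeq2 size factors or a pseudocount of 0.1, 1 with a pseudocount of 5 and 0 at a limit of 1. For TGFB1+miR-9-LOF over Ctrl the count of 1 became 2 with totals without the abundant transcripts, Gsto1 being added. The ratio of summed RPKM for miR-9-LOF over Ctrl was 1.94 with those totals, 1.78 when centred, 1.82 with TMM and 1.86 with DESeq2 factors, and that for TGFB1+miR-9-LOF over TGFB1 was 1.54 with those totals. These changes follow from the shift in scale or from the pseudocount and limit themselves. Of 360 recomputed log2 changes of members, 330 stayed within the counting interval of their main value, 30 left it and 0 of those past the limit changed sign. Leaving out the filter could change none of these values, nor could the longest transcript for genes with 1 transcript. Part of the 330 was thus fixed in advance. With 1 library per condition no result says how cultures vary, and Gstm5, Gstt1 and Mgst3 rest on 22 to 83 reads per library.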
